A study of Mus musculus with 11 samples.

Results

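The 10 genes described here encode epidermal lineage and differentiation transcription factors, namely Trp63, Tfap2a, Tfap2c, Klf4, Klf5, Ovol1, Grhl1, Grhl3, Zfp750 and Gata3. They were chosen by name, with earlier results of these data known, and each name matched 1 of the 55536 Ensembl genes counted in the files. RNA was sequenced from epidermal cells of the dorsal skin, sorted by flow cytometry in 11 libraries, each pooled from the cells of 2 male CD4Cre R26-tdT mice (C57Bl6/N). Libraries of replicate 1 came from mice of 29 weeks and those of replicates 2 and 3 from mice of 32 weeks. Those of the same replicate number were read as sharing mice, so the 11 libraries need not be separate pools. The sorted groups were tdT+CD49f+CD34+ (n = 3), tdTnegCD49f+CD34+ (n = 3), tdT+CD49f+CD34+SCA-1+ (n = 3) and tdTnegCD49f+CD34+SCA-1+ cells (n = 2). The CD49f+CD34+ groups were sorted as SCA-1 negative. CD49f is the integrin encoded by Itga6, CD34 marks bulge stem cells of the hair follicle, and SCA-1 (Ly6a) marks the infundibulum and interfollicular epidermis. All groups carried both alleles: a Cre driven by Cd4 regulatory sequence, and the red reporter tdT in the Rosa26 locus, which Cre switches on. The switch is permanent, so tdT+ cells are those with Cre activity in themselves or in an ancestor, and T cells are tdT+ as well. No library came from mice without these alleles.

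The epidermis is renewed from basal keratinocytes, which leave the basement membrane and pass through suprabasal stages to the cornified layer. Trp63 encodes p63, which keeps the basal, proliferative state, and the AP-2 factors Tfap2a and Tfap2c act beside it in establishing keratinocyte identity. Klf4, Ovol1, Grhl1, Grhl3 and Zfp750 are known for driving terminal differentiation and barrier formation, and Klf5 is a factor of basal keratinocytes. Gata3 is needed for the barrier and for the inner root sheath of the hair follicle, and it is also a central factor of T cells.

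Cell identity was compared with marker genes before the factors were read. Keratin genes of basal keratinocytes were high in every library, with group means from 9416 to 15048 normalized CPM (counts scaled to a common library size) for Krt5 and from 3146 to 11765 for Krt14. Ly6a was at 2.46 to 59.2 CPM in the CD49f+CD34+ libraries and at 153 to 294 in the SCA-1+ libraries. Cd34 was at 468 to 1130 CPM in the CD49f+CD34+ libraries, at 320 and 383 in the tdTnegCD49f+CD34+SCA-1+ libraries, and at 22.3 to 35.7 in the tdT+CD49f+CD34+SCA-1+ libraries, which are labelled CD34+. The summed level of 12 T cell markers was 36.2 to 89.2 CPM in CD49f+CD34+, 447 to 1168 in tdT+CD49f+CD34+SCA-1+ and 162 and 173 in tdTnegCD49f+CD34+SCA-1+ libraries. That of 7 endothelial markers was 1825 and 1922 CPM in the tdTnegCD49f+CD34+SCA-1+ libraries and 6.23 to 482 elsewhere, and none of either list was at 0 counts in any library. One row of the files lies outside the Ensembl genes. It was at 133 to 307 CPM in 5 of the 6 libraries labelled tdT+ and at 2.54 to 4.89 in tdTneg libraries, but at 2.05 in the library labelled as replicate 2 of tdT+CD49f+CD34+, which on this row stands with the tdTneg libraries. Counts of factors in the comparisons that use this doubtful library are also given after leaving it out. Totals ran from 17409131 to 46542177 counts per library.

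Promoters are shown for 4 factors, because 7 of the 10 moved together between the sorted populations and 3 of these 4, Gata3, Grhl1 and Grhl3, are among the 7, while Klf4 is not. RefSeq held 7 promoter entries (GRCm38.p6) for 5 of the 10 factors, with 2 each for Tfap2a and Grhl1, and Trp63, Tfap2c, Klf5, Ovol1 and Zfp750 had no entry. Each sequence is the 250 bases before a RefSeq start, read on the gene's strand from 5′ to 3′, and capitals mark matches to the motifs searched on both strands. The AP-2 motif was GCCNNNGGC, the motif of GATA factors AGATAA, that of KLF factors CCCCACCC and that of GRHL factors AACCGGTT.
Gata3 (chr2:9878601-9878850, minus strand): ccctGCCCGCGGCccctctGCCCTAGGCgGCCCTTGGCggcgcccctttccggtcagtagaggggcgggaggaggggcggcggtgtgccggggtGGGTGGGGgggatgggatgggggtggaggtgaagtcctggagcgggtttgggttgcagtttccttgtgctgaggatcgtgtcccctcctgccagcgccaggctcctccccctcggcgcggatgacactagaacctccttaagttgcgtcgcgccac
Grhl1 (chr12:24572037-24572286, plus strand): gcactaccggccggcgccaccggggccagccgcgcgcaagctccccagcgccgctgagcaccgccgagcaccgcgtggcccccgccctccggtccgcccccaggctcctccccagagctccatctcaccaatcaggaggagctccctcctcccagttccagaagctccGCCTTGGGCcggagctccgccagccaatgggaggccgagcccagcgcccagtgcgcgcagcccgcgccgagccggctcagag
Grhl3 (chr4:135573633-135573882, minus strand): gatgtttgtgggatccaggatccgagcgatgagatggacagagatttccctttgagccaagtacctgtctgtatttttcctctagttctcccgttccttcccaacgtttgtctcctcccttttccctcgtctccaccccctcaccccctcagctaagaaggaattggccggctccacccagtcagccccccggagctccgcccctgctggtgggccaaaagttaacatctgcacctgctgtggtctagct
Klf4 (chr4:55532476-55532725, minus strand): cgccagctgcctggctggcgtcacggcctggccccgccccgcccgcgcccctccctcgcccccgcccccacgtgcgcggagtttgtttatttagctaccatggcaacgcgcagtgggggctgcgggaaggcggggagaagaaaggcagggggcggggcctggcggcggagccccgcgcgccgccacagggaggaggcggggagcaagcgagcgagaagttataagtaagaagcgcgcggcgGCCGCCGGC

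The Gata3 window held 3 AP-2 matches, which began 246, 231 and 221 bases before the start, and 1 KLF match on the opposite strand at 156 bases. The Grhl1 window shown held 1 AP-2 match at 82 bases before the start and Klf4 1 at 9 bases. Grhl3 held none of the 4 motifs, and no window held a GATA or GRHL match. The second Grhl1 entry (chr12:24580469-24580718, plus strand) and both Tfap2a entries, which are not printed, held none of the 4 motifs, and G and C made up 52.0% of the first and 47.6% and 60.4% of the others. Among 32851 RefSeq promoters of this length, leaving out 1 chromosome, 13.7% held the AP-2 letters, 9.99% those of GATA, 9.05% those of KLF and 0.116% those of GRHL. G and C made up 70.0% of the Gata3, 75.6% of the Grhl1 window shown, 56.0% of the Grhl3 and 74.0% of the Klf4 window, against a median of 52.4% over all promoters. The matches are letters in these windows, and nothing in the files measures binding there.

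All 10 factors were detected in all 11 libraries, with 130 counts in the lowest case (Grhl3) and 51872 in the highest (Klf4). Levels between genes are compared per kilobase of merged exons. On this scale Klf4 ranked first and Trp63 second in each of the 4 groups, with means over all libraries of 273 ± 72.8 and 109.7 ± 18.3 CPM per kb (SD, n = 11). Gata3 came next in each group, at 61.8 ± 39.6. Grhl3 and Ovol1 were lowest, at 11.9 ± 8.65 and 12.8 ± 6.65 CPM per kb. Klf4 lay above 99.5% and Grhl3 above 79.2% of the 20307 genes tested. The plot of levels by library shows that the factors fall into those that separate the populations and those that do not.

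**Figure D1:**
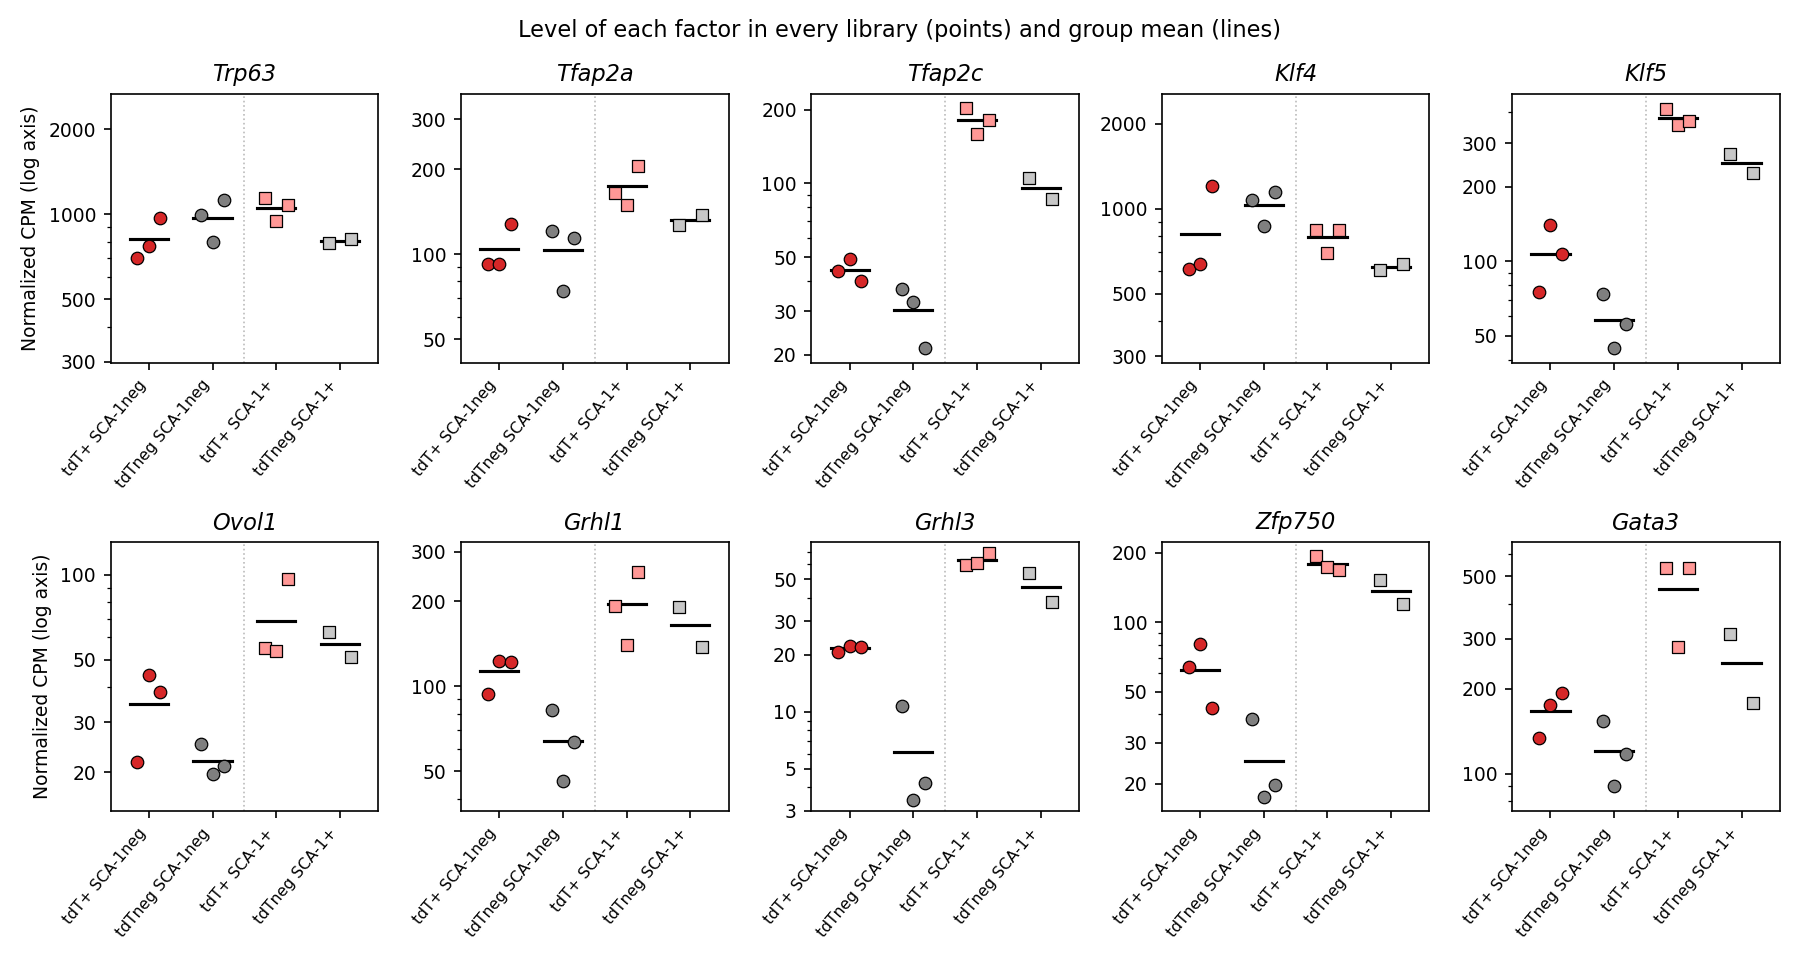
Level of each factor in normalized CPM on a log axis, with 1 point per library, a line at each group mean, and the 4 sorted groups side by side (red tdT+, grey tdTneg, circles SCA-1neg, squares SCA-1+). Trp63, Klf4, Tfap2a and Gata3 overlap between SCA-1neg and SCA-1+ libraries, whereas Tfap2c, Klf5, Ovol1, Grhl1, Grhl3 and Zfp750 lie higher in all 5 SCA-1+ libraries.

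The first comparison set the SCA-1+ population beside the SCA-1neg population, averaged over both tdT sorts. Tfap2c, Klf5, Ovol1, Grhl1, Grhl3, Zfp750 and Gata3 were higher in the SCA-1+ population, by 2.11-fold (Grhl1) to 4.67-fold (Grhl3), and none was called lower. Trp63 and Klf4 did not pass the test, and Tfap2a passed the p-value but not the fold threshold. A gene was called where its log2 fold change exceeded 1 in size and its adjusted p was under 0.05 in edgeR's quasi-likelihood test across all genes. Thus 7 of 10 factors were called higher, where 4.77% of the genes tested were called higher and 11.6% in either direction. The median log2 fold change was 1.20 over the 10 factors and -0.09 over all genes. All libraries of one population lay above all of the other for 6 of the 10, against 5.1% of genes. With the doubtful tdT+CD49f+CD34+ replicate 2 left out, the number called higher was also 7 (background 5.69%), and Klf4 was at -0.47 (unadjusted p = 0.0425, adjusted p = 0.134, edgeR). In bulk samples, more cells of a type and more RNA per cell cannot be told apart.

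Trp63 measured 700.3, 773 and 972 CPM in the tdT+CD49f+CD34+ libraries, 993, 794 and 1122 in tdTnegCD49f+CD34+, 1139, 944 and 1079.6 in tdT+CD49f+CD34+SCA-1+ and 793 and 815 in tdTnegCD49f+CD34+SCA-1+. Groups next to each other in the order of means overlapped, whereas the tdT+ SCA-1+ libraries all lay above both tdTneg SCA-1+ libraries. The log2 fold change between populations was 0.05 ± 0.14 (SE; 95% confidence interval -0.26 to 0.36; adjusted p = 0.838, edgeR).

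Of the AP-2 factors, Tfap2a measured 92.5, 92.3 and 128 CPM in tdT+CD49f+CD34+, 121, 74.2 and 114 in tdTnegCD49f+CD34+, 165, 149.8 and 206 in tdT+CD49f+CD34+SCA-1+ and 127 and 138 in tdTnegCD49f+CD34+SCA-1+ libraries. The tdT+ SCA-1+ libraries were the highest, and the tdTneg SCA-1+ libraries overlapped with the CD49f+CD34+ ones. Its log2 fold change was 0.55 ± 0.16 (SE; adjusted p = 0.0375, edgeR), under the fold threshold. Tfap2c, the AP-2 paralog, measured 43.9, 49.3 and 39.9 CPM in tdT+CD49f+CD34+, 36.9, 32.9 and 21.3 in tdTnegCD49f+CD34+, 203, 159 and 181 in tdT+CD49f+CD34+SCA-1+ and 106 and 86.2 in tdTnegCD49f+CD34+SCA-1+ libraries. No libraries of neighbouring groups overlapped, so that the order ran from tdT+ SCA-1+ through tdTneg SCA-1+ and tdT+ SCA-1neg to tdTneg SCA-1neg. The share of all genes with 4 groups apart was not counted, and the tests of tdT are given below. Its log2 fold change between populations was 1.84 ± 0.15 (SE; adjusted p = 0.000128, edgeR).

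The Kruppel-like factors parted in the same way. Klf4 measured 611, 635 and 1203 CPM in tdT+CD49f+CD34+, 1072, 867 and 1149.7 in tdTnegCD49f+CD34+, 839, 699 and 837 in tdT+CD49f+CD34+SCA-1+ and 605 and 634 in tdTnegCD49f+CD34+SCA-1+ libraries. Its spread was widest among the tdT+CD49f+CD34+ libraries, at 817 ± 335 (SD, n = 3), and the populations overlapped. The summed level of 12 dissociation response genes in those libraries was 12418, 12468 and 20738 CPM for replicates 1, 2 and 3, highest where Klf4 was highest. The log2 fold change was -0.39 ± 0.19 (SE; 95% confidence interval -0.82 to 0.05; adjusted p = 0.189, edgeR). Klf5 measured 74.9, 140.0 and 107 CPM in tdT+CD49f+CD34+, 73.8, 44.8 and 55.7 in tdTnegCD49f+CD34+, 414, 354 and 368 in tdT+CD49f+CD34+SCA-1+ and 272 and 228 in tdTnegCD49f+CD34+SCA-1+ libraries. As for Tfap2c, no neighbouring groups overlapped and the order of groups was the same, again without a share over all genes. Its log2 fold change was 1.96 ± 0.18 (SE; adjusted p = 0.000197, edgeR).

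Of the factors known for driving terminal differentiation, Ovol1, Grhl1, Grhl3 and Zfp750 rose in the SCA-1+ population and Klf4, at -0.39, was not called. Ovol1, a zinc finger repressor active as keratinocytes leave the basal layer, measured 21.8, 44.2 and 38.6 CPM in tdT+CD49f+CD34+, 25.2, 19.7 and 21.0 in tdTnegCD49f+CD34+, 55.0, 53.8 and 96.5 in tdT+CD49f+CD34+SCA-1+ and 62.7 and 51.1 in tdTnegCD49f+CD34+SCA-1+ libraries. Grhl1, a grainyhead factor of desmosomal genes, measured 94.0, 123 and 122 CPM in tdT+CD49f+CD34+, 82.7, 46.0 and 63.3 in tdTnegCD49f+CD34+, 192, 140.1 and 254 in tdT+CD49f+CD34+SCA-1+ and 191 and 138 in tdTnegCD49f+CD34+SCA-1+ libraries. For both, the tdT+ and tdTneg SCA-1+ libraries overlapped with each other and lay above all CD49f+CD34+ libraries. The log2 fold changes were 1.17 ± 0.22 for Ovol1 (SE; adjusted p = 0.00537, edgeR) and 1.08 ± 0.20 for Grhl1 (SE; adjusted p = 0.00478, edgeR). Grhl1 lay at the fold threshold: it fell under it without tdTnegCD49f+CD34+ replicate 2, tdT+CD49f+CD34+SCA-1+ replicate 3 or tdTnegCD49f+CD34+SCA-1+ replicate 1, with a lowest value of 0.94.

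Grhl3, the grainyhead factor of barrier formation, had the largest population difference of the 10. It measured 20.6, 22.3 and 21.9 CPM in tdT+CD49f+CD34+, 10.7, 3.44 and 4.22 in tdTnegCD49f+CD34+, 59.8, 61.1 and 68.5 in tdT+CD49f+CD34+SCA-1+ and 53.9 and 37.8 in tdTnegCD49f+CD34+SCA-1+ libraries. None of the 4 groups overlapped, and tdTnegCD49f+CD34+ replicate 1 was highest of its group. The log2 fold change was 2.22 ± 0.27 (SE; adjusted p = 0.000663, edgeR). Zfp750, a p63 target that drives late differentiation, measured 63.8, 80.4 and 42.5 CPM in tdT+CD49f+CD34+, 38.0, 17.5 and 19.6 in tdTnegCD49f+CD34+, 193, 173 and 168 in tdT+CD49f+CD34+SCA-1+ and 152 and 120.4 in tdTnegCD49f+CD34+SCA-1+ libraries. Its 4 groups were apart in the same order, with a log2 fold change between populations of 1.98 ± 0.23 (SE; adjusted p = 0.000502, edgeR). For these orders, too, the share over all genes was not counted, and the doubtful tdT+CD49f+CD34+ replicate 2 is among the libraries. The Zfp750 locus lies within the gene Tbcd on the opposite strand, with which it shares no exonic base.

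Gata3 measured 133, 174 and 193 CPM in tdT+CD49f+CD34+, 154, 90.7 and 117 in tdTnegCD49f+CD34+, 536, 281 and 535 in tdT+CD49f+CD34+SCA-1+ and 313 and 178 in tdTnegCD49f+CD34+SCA-1+ libraries. The tdTnegCD49f+CD34+SCA-1+ replicate 2 value lay among the CD49f+CD34+ values, so the populations overlapped. The log2 fold change was 1.23 ± 0.23 (SE; adjusted p = 0.00555, edgeR), and without tdTnegCD49f+CD34+SCA-1+ replicate 1 it was 0.99, just under the threshold. T cell markers moved with it: 11 of the 12 were called higher in the SCA-1+ population, and their summed level was 447, 1168 and 769 CPM in replicates 1, 2 and 3 of tdT+CD49f+CD34+SCA-1+ cells, whereas Gata3 was lowest in replicate 2. The part of T cell RNA in the Gata3 level was not tested. Gata3 and Klf5 are also shown by the study among transcription factors of the interfollicular epidermis for these same libraries, so their direction here is not independent evidence.

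**Figure D2:**
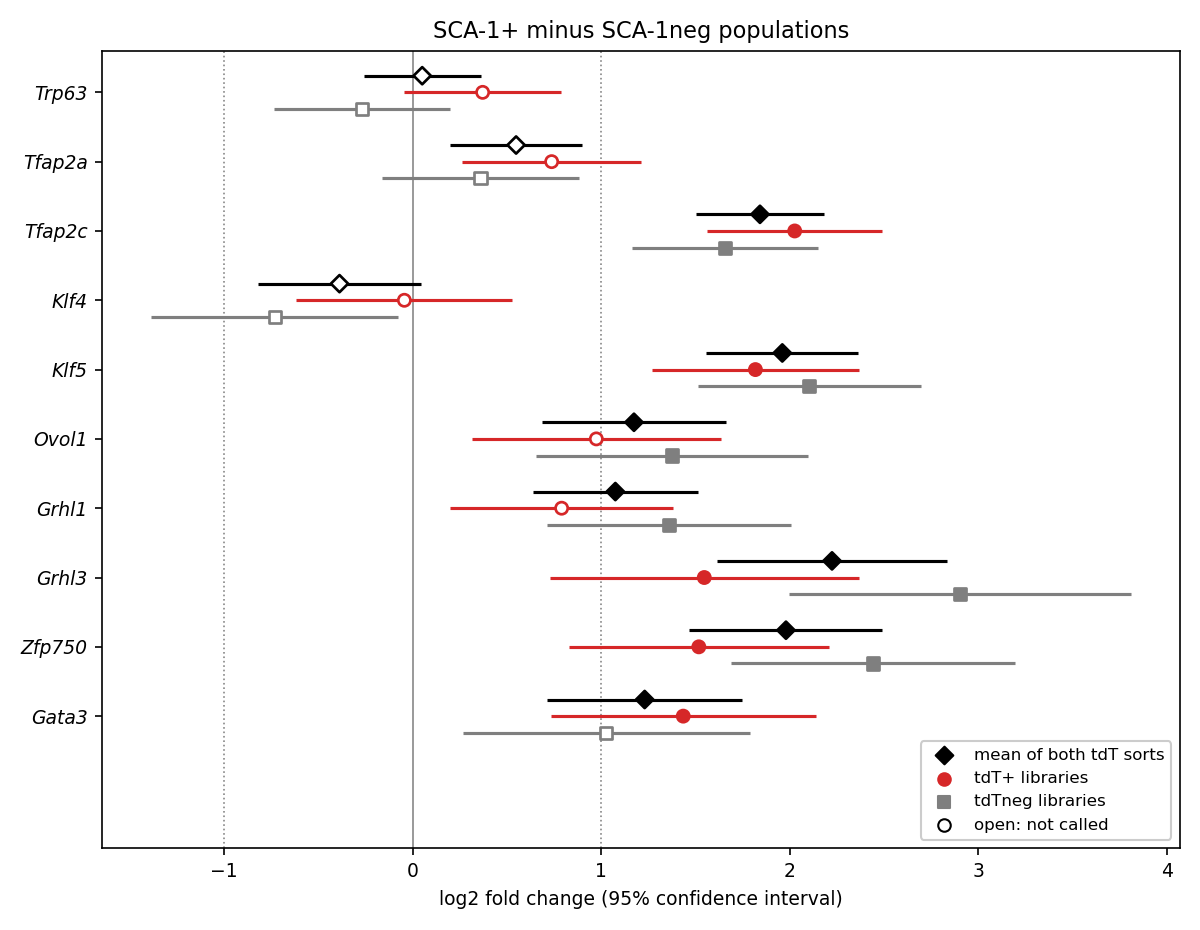
Log2 fold change of each factor between the SCA-1+ and SCA-1neg populations with its 95% confidence interval, as the mean of both tdT sorts (diamonds) and within tdT+ (circles) or tdTneg libraries (squares). Filled symbols were called, dotted lines mark the fold threshold, and the intervals of Trp63 and Klf4 for the mean include 0.

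Within tdT+ cells alone, 5 of 10 factors were called higher in the SCA-1+ population (background 2.91% of genes), namely Tfap2c, Klf5, Grhl3, Zfp750 and Gata3. Within tdTneg cells 6 of 10 were (background 3.29%), namely Tfap2c, Klf5, Ovol1, Grhl1, Grhl3 and Zfp750. Over 17 alternative fits, the tdTneg call was lost in 6 for Ovol1 and in 4 for Grhl1. It was lost in 1 each for Tfap2c, Klf5, Grhl3 and Zfp750. Tfap2c rose by 2.03 ± 0.21 on the log2 scale in tdT+ and by 1.66 ± 0.22 in tdTneg cells (SE), Klf5 by 1.82 ± 0.25 and 2.10 ± 0.27, and Zfp750 by 1.52 ± 0.31 and 2.44 ± 0.34. Grhl3 rose by 1.55 ± 0.37 in tdT+ and by 2.90 ± 0.41 in tdTneg cells (SE). For Gata3 the difference was 1.44 ± 0.32 in tdT+ cells, which was called, and 1.03 ± 0.34 in tdTneg cells, which was not (adjusted p = 0.117, edgeR). Ovol1 was at 0.97 ± 0.30 and Grhl1 at 0.79 ± 0.27 in tdT+ cells, where neither was called, against 1.37 ± 0.32 and 1.36 ± 0.29 in tdTneg cells (SE). Klf4 was at -0.73 ± 0.29 in tdTneg cells (SE; unadjusted p = 0.0320, adjusted p = 0.188, edgeR) and at -0.04 ± 0.26 in tdT+ cells (SE). In tdTneg cells both SCA-1+ libraries lay below all 3 CD49f+CD34+ libraries. With so few libraries, 46.3% of all genes were apart there in one direction or the other. The dissociation sums were 14181 and 14623 CPM in these SCA-1+ libraries against 16915 to 20798, and their part in the Klf4 values was not tested. Whether these differences depended on the tdT sort is the difference in tdT effect given after the tdT comparisons.

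The tdTneg call rested on few libraries: with tdTnegCD49f+CD34+SCA-1+ replicate 1 left out, 0 of the 6 were called, where the share of all genes called higher was 0.222%, and the remaining library of that group was assumed to vary like the others. In that fit the 6 log2 fold changes ran from 1.09 (Grhl1) to 2.61 (Grhl3), with adjusted p from 0.0603 (Klf5) to 0.293 (Ovol1) in edgeR. The endothelial marker sum of 1825 and 1922 CPM stood in these same 2 libraries, and its part in the tdTneg values was not tested. Within tdT+ cells, with the doubtful replicate 2 of tdT+CD49f+CD34+ left out, 4 of the 5 were called (background 3.29%) and Grhl3 was at 1.57 (adjusted p = 0.0581, edgeR). Without tdT+CD49f+CD34+ replicate 1, tdT+CD49f+CD34+SCA-1+ replicate 1 or tdT+CD49f+CD34+SCA-1+ replicate 3, 3 were called in each case, with backgrounds of 1.79%, 2.33% and 2.13%. The mean log2 difference in mice of 29 and of 32 weeks was 1.85 and 1.80 for Tfap2c, 2.16 and 1.87 for Klf5, 1.90 and 2.34 for Grhl3, 1.79 and 2.10 for Zfp750, 1.31 and 1.05 for Ovol1, 1.12 and 0.98 for Grhl1 and 1.51 and 0.93 for Gata3.

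Ratios of related factors within a library do not depend on scaling between libraries. The ratio of Tfap2c to Tfap2a per kb was 0.248 to 0.712 in the 6 CD49f+CD34+ libraries and 0.835 to 1.64 in the 5 SCA-1+ libraries, so Tfap2c was the lower AP-2 gene in the first and at or above Tfap2a in 4 of the 5 SCA-1+ libraries. Klf5 to Klf4 was 0.0284 to 0.129 against 0.211 to 0.297, and Klf4 exceeded Klf5 in every library. Grhl3 to Grhl1 was 0.132 to 0.436 against 0.535 to 0.866. None of these ratios overlapped between the populations. As Tfap2c, Klf5 and Grhl3 were themselves apart between the populations, the ratios are no separate evidence of a difference.

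**Figure D3:**
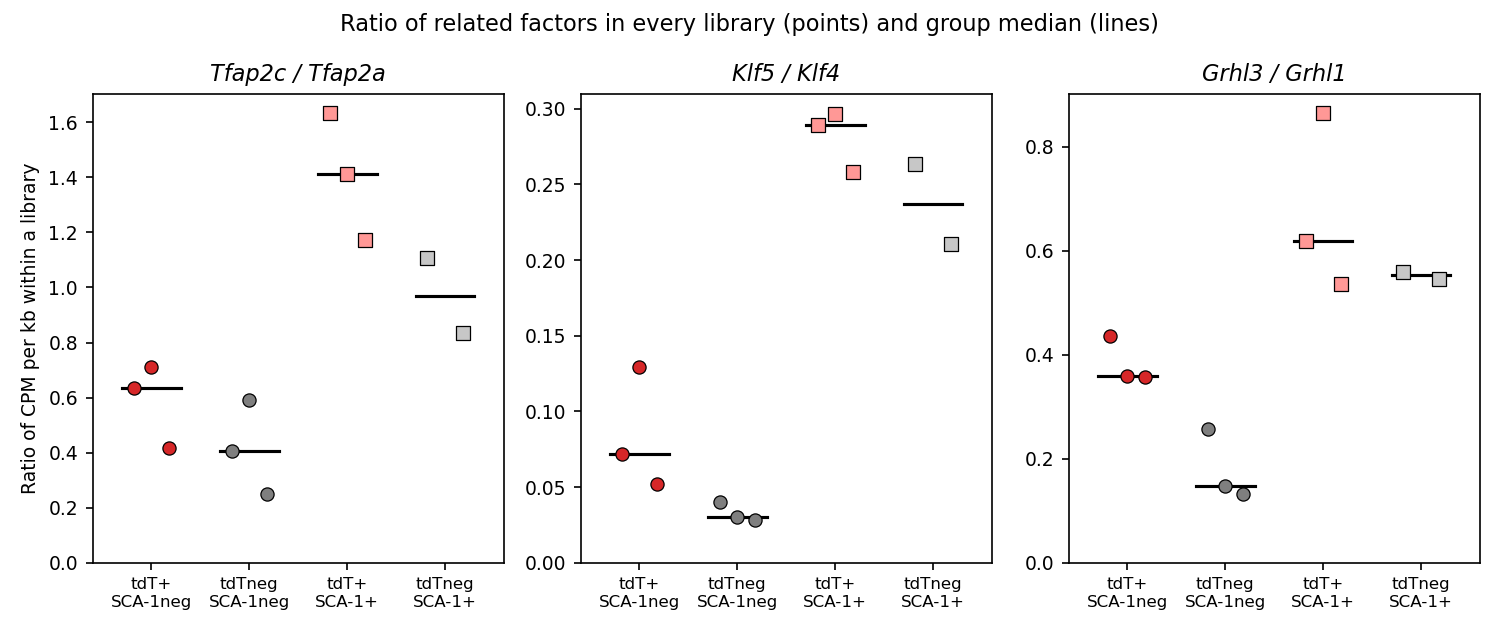
Ratio of CPM per kb of Tfap2c to Tfap2a, Klf5 to Klf4 and Grhl3 to Grhl1 within each library (points) with group medians (lines), by sorted group. In each panel the 5 SCA-1+ libraries lie above the 6 SCA-1neg libraries, and the tdTneg SCA-1neg group has the lowest median, for example 0.148 for Grhl3 to Grhl1.

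The second comparison asked whether tdT+ cells differ from tdTneg cells of the same population. In CD49f+CD34+ cells, no factor was called (0 of 10, background 0.00985% of genes, edgeR). At an unadjusted p under 0.05, 6 of 10 were higher in tdT+ cells and 0 lower, where 4.56% of genes were higher: Grhl3, Zfp750, Klf5, Grhl1, Tfap2c and Ovol1. The largest differences were those of Grhl3, at 1.82 ± 0.37 on the log2 scale (SE; unadjusted p = 0.000633, adjusted p = 0.187, edgeR), and Zfp750, at 1.31 ± 0.31 (SE; unadjusted p = 0.00166, adjusted p = 0.231, edgeR). DESeq2 called these 2 factors, where it called 1.63% of genes. Klf5 followed at 0.88 ± 0.24, Grhl1 at 0.82 ± 0.27, Ovol1 at 0.67 ± 0.30 and Tfap2c at 0.55 ± 0.20 (SE). The tdT+ libraries lay above all tdTneg libraries for 5 of the 10, against 5.07% of genes. Trp63 was at -0.25 ± 0.19, Tfap2a at 0.01 ± 0.21, Klf4 at -0.33 ± 0.26 and Gata3 at 0.47 ± 0.31 (SE).

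The doubtful library, labelled as replicate 2 of tdT+CD49f+CD34+, was the highest of its group for Klf5, Ovol1, Grhl1, Grhl3, Zfp750 and Tfap2c, although it lay near the tdTneg libraries on the row outside the Ensembl genes. Without it, 4 of 10 factors were higher at an unadjusted p under 0.05 (background 3.42%), namely Grhl3 at 1.79 (adjusted p = 0.348, edgeR), Zfp750 at 1.08, Grhl1 at 0.75 and Klf5 at 0.65. Tfap2c and Ovol1, both at 0.46, no longer passed, and Gata3 was at 0.43. The remaining tdT+ libraries lay above all tdTneg libraries for 5 of the 10, against 8.84% of genes. That library also had the highest suprabasal marker sum of its group, 5596 CPM, and the highest endothelial and leukocyte sums, 482 and 563 CPM. Without tdTnegCD49f+CD34+ replicate 1, the tdTneg library with the highest Grhl3, the difference of Grhl3 was 2.50 (adjusted p = 0.0192, edgeR) and called, where 0.00497% of genes were called higher. T cell markers were higher in tdT+CD49f+CD34+ libraries, at 47.2 to 89.2 CPM in sum against 36.2 to 36.9, with 8 of 12 at an unadjusted p under 0.05. Langerhans cell and leukocyte markers were at 99.7 to 563 CPM in sum against 18.1 to 113, with 5 of 8 higher at an unadjusted p under 0.05. Their median log2 fold change was 2.09, and 1.14 without the doubtful tdT+CD49f+CD34+ replicate 2. The part of both lists in these differences was not tested.

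In CD49f+CD34+SCA-1+ cells, 0 of 10 factors were called between tdT+ and tdTneg cells (background 2.31% of genes in either direction, edgeR), and DESeq2 called none, against 5.54% of genes. At an unadjusted p under 0.05, 2 were higher, Tfap2c and Gata3, where 5.17% of genes were. All 10 log2 fold changes were above 0, as were those of 53.6% of genes, and the 3 tdT+ libraries lay above both tdTneg libraries for 7 of the 10, against 15.8% of genes. Tfap2c was at 0.91 ± 0.23 (SE; adjusted p = 0.0777, edgeR). With the replicate number as a block it was called, at 1.02 (adjusted p = 0.0492, edgeR), as 1 of 10 factors against 1.99% of genes. Gata3 was at 0.88 ± 0.36 (SE; adjusted p = 0.288, edgeR), with the T cell sum at 447 to 1168 CPM in tdT+ and 162 and 173 in tdTneg libraries. Klf5 was at 0.60 ± 0.27, Grhl3 at 0.46 ± 0.41, Zfp750 at 0.39 ± 0.34, Ovol1 at 0.27 ± 0.33 and Grhl1 at 0.25 ± 0.30 (SE). Trp63 and Tfap2a were both at 0.39 and Klf4 at 0.35, with intervals that included 0. All 7 endothelial markers were lower in tdT+ cells at an unadjusted p under 0.05, with 2 called and a median log2 fold change of -5.18, and their sums were 32.9 to 70.0 CPM in tdT+ and 1825 and 1922 in tdTneg libraries. Outer bulge stem cell factors were lower in tdT+ cells as well, with 3 of 10 called, 8 at an unadjusted p under 0.05 and a median of -1.20, and their sums were 671 to 867 CPM against 1220 and 2120. The part of T cells, endothelial cells and bulge cells in these differences was not tested.

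The difference between populations in the tdT effect was tested as an interaction, and 0 of 10 factors were called (background 0.389%, edgeR), with none called by DESeq2, which called 3.83% of genes. The tdT effect on Grhl3 was smaller in SCA-1+ than in CD49f+CD34+ cells, with a difference of -1.36 ± 0.54 on the log2 scale (SE; 95% confidence interval -2.55 to -0.16; unadjusted p = 0.0302, adjusted p = 0.338, edgeR). That of Trp63 was larger by 0.64 ± 0.28 (SE; unadjusted p = 0.0452, adjusted p = 0.392, edgeR). The other 8 did not pass an unadjusted p of 0.05, with 12.4% of genes doing so. Without the doubtful tdT+CD49f+CD34+ replicate 2, 0 of 10 passed an unadjusted p of 0.05 (background 10.7%), with Grhl3 at -1.33 (unadjusted p = 0.0504, edgeR) and Trp63 at 0.61 (unadjusted p = 0.0848, edgeR). Without tdTnegCD49f+CD34+ replicate 1, Grhl3 was at -2.03 (adjusted p = 0.0424, edgeR) and called, where 0.114% of genes were called lower. All 7 endothelial markers, 4 of 8 leukocyte markers, 5 of 10 outer bulge factors and 6 of 27 suprabasal genes were lower in this test at an unadjusted p under 0.05. The bulge median was -1.15 and the suprabasal median -1.16, against 0.05 over all genes, and the part of these cells in the test was not tested. The same interaction gives the difference between tdT+ and tdTneg cells in the population effect.

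**Figure D4:**
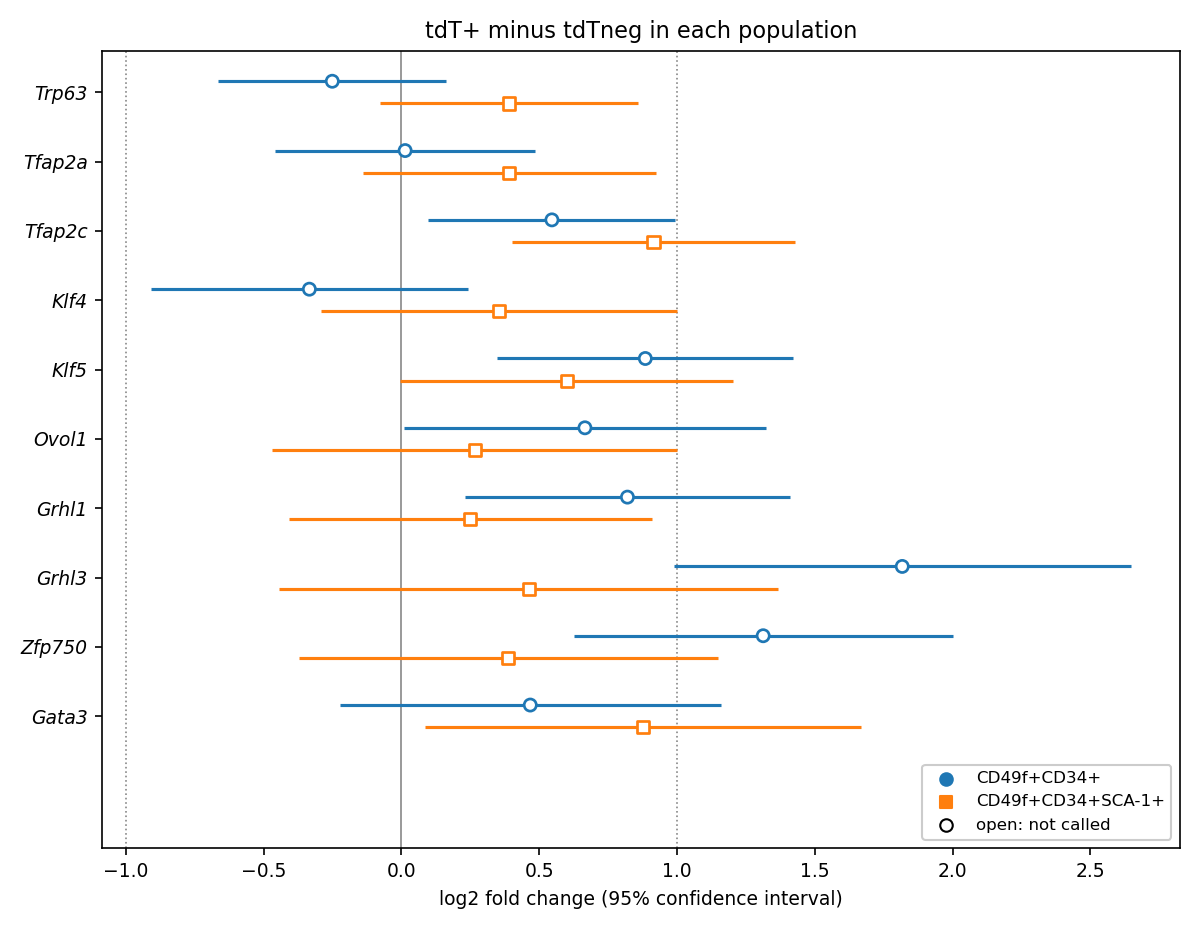
Log2 fold change of each factor between tdT+ and tdTneg cells with its 95% confidence interval, in CD49f+CD34+ (circles) and CD49f+CD34+SCA-1+ cells (squares). No symbol is filled since no factor was called, and Grhl3 in CD49f+CD34+ cells has the largest value, 1.82.

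Other genes of the same circuits were described from lists. Of 28 paralogs of the factors, 22 had enough counts to be tested. Between populations 0 were called higher and 2 lower, with a median log2 fold change of -0.16. Over all genes, 4.77% were called higher and 6.79% lower. Tfap2b, an AP-2 paralog, fell by 1.67, from group means of 260 and 319 CPM in tdT+ and tdTneg CD49f+CD34+ cells to 61.7 and 132 in SCA-1+ cells. Klf15 fell by 2.72, from 31.4 and 29.6 CPM to 4.46 and 4.80. Grhl2, the grainyhead paralog of simple and stratified epithelia, was at -0.12, Ovol2 at -0.40 and Trp73, the p63 paralog, at -0.46, and none was called.

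Of 26 other epidermal transcription regulators, 7 were called higher and 2 lower in the SCA-1+ population (backgrounds 4.77% and 6.79% of genes). Ikzf2 rose by 2.42, Ehf, an ETS factor of differentiated epithelia, by 2.20, Ets1 by 2.09 and Satb1, a chromatin organizer under p63, by 1.73. Foxn1, Pou2f3 and Pou3f1 rose as well, by 1.69, 1.73 and 1.16. Barx2 fell by 1.40 and Hopx, a homeobox gene of the lower bulge, by 1.06. Ikzf2, Ets1 and Satb1 are also T cell factors, and the T cell sums above stand beside their values. Ets1 was highest in the tdTnegCD49f+CD34+SCA-1+ libraries, at 183 ± 3.39 CPM (SD, n = 2). It is also known from endothelial cells, whose markers were highest there. The part of T cells and endothelial cells in the Ikzf2, Ets1 and Satb1 values was not tested. Ehf was at 10.8 ± 6.10 CPM in tdTnegCD49f+CD34+, 32.2 ± 1.67 in tdT+CD49f+CD34+, 67.3 ± 15.3 in tdTnegCD49f+CD34+SCA-1+ and 109 ± 16.9 in tdT+CD49f+CD34+SCA-1+ cells (SD), the order of Grhl3.

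Of 18 basal genes under p63 control, 2 were called higher and 1 lower, where 4.77% of all genes were called higher and 6.79% lower. Their median was 0.21, with 12 above 0 and 6 below. At an unadjusted p under 0.05 (edgeR), 6 were higher and 3 lower. Krt14 rose by 1.28 and Pkp1, a desmosomal plakophilin, by 1.17, while Krt15, a keratin of the bulge, fell by 1.17. Krt5 was at 0.26 and Itgb4 at 0.31. Of 27 suprabasal and cornified envelope genes, 12 were called higher and 1 lower, with a median of 1.28. Sprr1b rose by 3.40, Tgm3 by 3.21 and Krt1 by 2.97, and Krt10, the partner keratin of Krt1, by 2.23. Tgm5, a transglutaminase, fell by 3.20. The late genes Flg and Lor were at -1.60 and 0.88 and were not called. The suprabasal sum was 1256 to 5596 CPM in CD49f+CD34+ and 4197 to 11876 in SCA-1+ libraries, so the populations overlapped in the sum.

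Ovol and Grhl factors are known to repress mesenchymal genes in epithelia, and of 8 such genes 1 was called in each direction. Over all genes, 4.77% were called higher and 6.79% lower. Cdh2, N-cadherin, fell: it had at most 0.168 CPM in SCA-1+ libraries, against 0.195 to 55.5 in CD49f+CD34+ libraries. The CD49f+CD34+ libraries were uneven in the sum of the 8 genes. It was 2057, 1282 and 131 CPM in tdT+ replicates 1, 2 and 3 and 180, 1336 and 186 in tdTneg replicates 1, 2 and 3. Vim, vimentin, rose by 2.54, with 949 ± 187 CPM in tdTnegCD49f+CD34+SCA-1+ cells (SD, n = 2). Vim is expressed by leukocytes and endothelial cells, and the sums of both marker lists were highest in those libraries. For Langerhans cell and leukocyte markers they were 722 and 1099 CPM. The part of these cells in the Vim values was not tested. Snai2 was at -0.25 and Zeb1 at 0.68, and neither was called. Of 10 outer bulge stem cell factors, 9 were called lower in the SCA-1+ population, against 6.79% of all genes. Their median was -1.49, and among those called, Lhx2 fell by 2.90 and Tcf7l1 by 2.03.

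**Figure D5:**
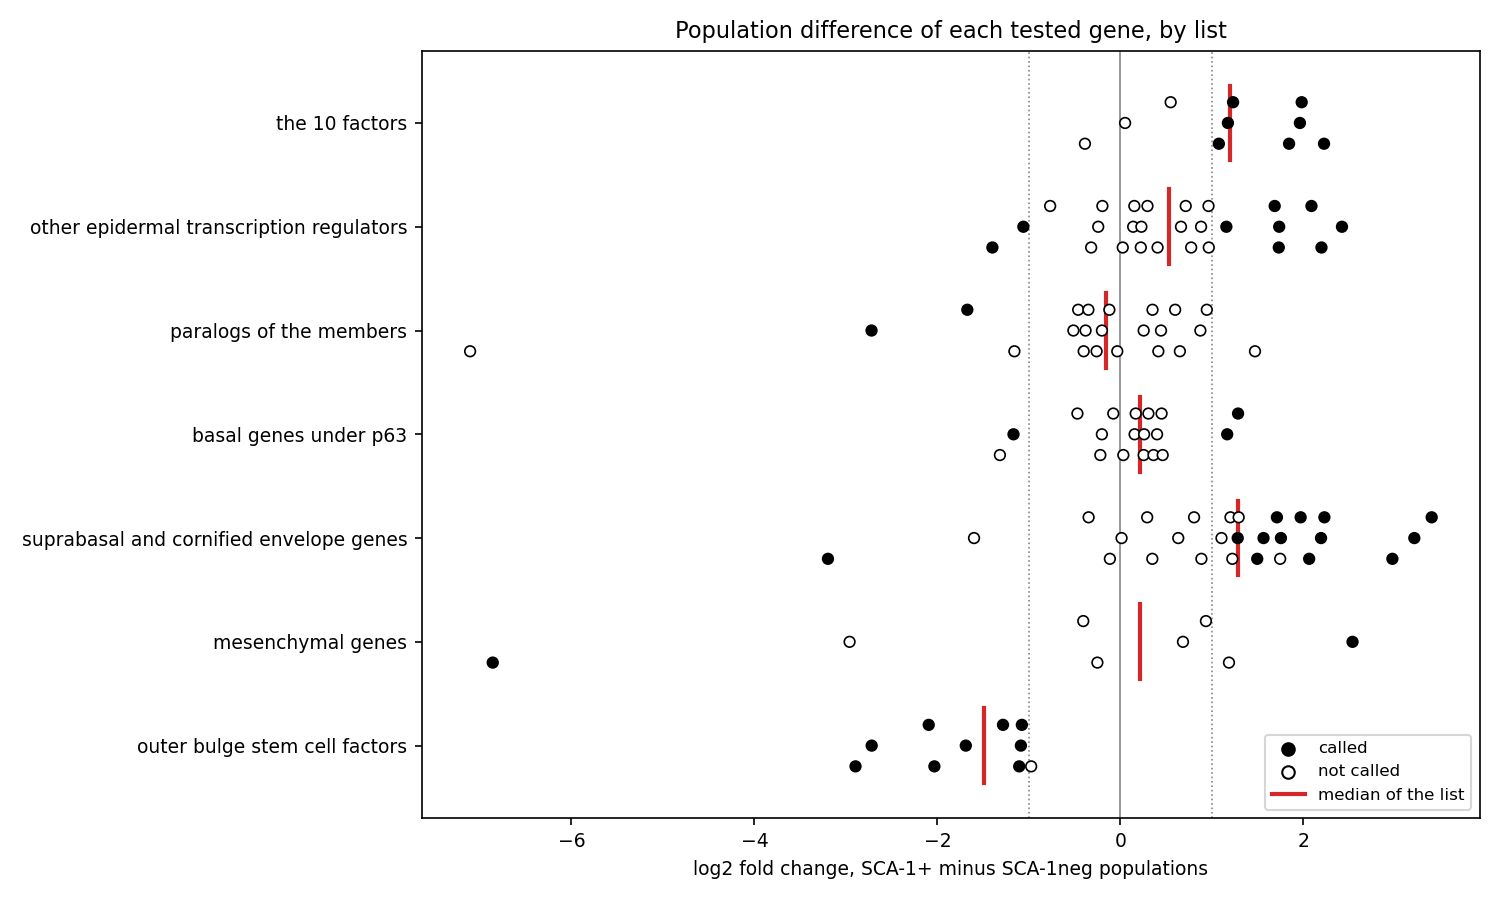
Log2 fold change between the SCA-1+ and SCA-1neg populations for each tested gene (points, filled where called) of the 10 factors and 6 other lists, with the median of each list as a red line. The medians are 1.20 for the factors, 0.53 for other epidermal transcription regulators, -0.16 for paralogs, 0.21 for basal genes, 1.28 for suprabasal genes, 0.22 for mesenchymal genes and -1.49 for bulge factors.

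Between tdT+ and tdTneg CD49f+CD34+ cells, no gene of these lists was called. At an unadjusted p under 0.05, 12 of 27 suprabasal genes were higher in tdT+ cells and 0 lower, with a median log2 fold change of 1.13 against -0.03 over all genes. Casp14, a caspase of the cornifying layer, was at 1.60 (adjusted p = 0.214, edgeR) and Ehf at 1.57 (adjusted p = 0.202, edgeR). With the doubtful replicate 2 of tdT+CD49f+CD34+ left out, the suprabasal median was 0.88. In CD49f+CD34+SCA-1+ cells the suprabasal median was -0.11, with 0 genes called higher and 1, Tgm5, lower. Of the other regulators, Pou3f1 was called higher there (1.21) and Dlx3 lower (-2.17).

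Markers of other cells were measured for the population comparison, where 4.77% of all genes were called higher and 6.79% lower. Of 8 Langerhans cell and leukocyte markers 6 were called higher in SCA-1+ cells, with sums of 543 to 1099 CPM against 18.1 to 563. Of 7 endothelial markers 0 were called in edgeR, 2 at an unadjusted p under 0.05, and 4 with that doubtful tdT+CD49f+CD34+ library left out. Of 6 fibroblast markers 0 were called, with 0 at an unadjusted p under 0.05, and of 6 melanocyte markers 3 were called lower, from 93.5 to 159 CPM in sum to 15.4 to 57.1. Of 9 upper follicle and sebaceous markers 1 was called higher, Krt79, and 1 lower, Mgst1. None of 12 dissociation response genes was called, 1 passed an unadjusted p of 0.05, and their sums of 12418 to 20798 and 14181 to 19679 CPM overlapped. The part of these cells and genes in the factors' values was not tested.

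Genes with the most similar pattern were named for each factor by the root mean square difference of log2 CPM, each gene centred on its own mean, over all 11 libraries. The nearest to Grhl3 were Ehf, at 0.180, Casp14, at 0.253, and Calm4, at 0.367, where Grhl3 itself varied by 1.44 about its mean. Casp14 was on the suprabasal list. For Ovol1 they were Cdkn1a, the cyclin-dependent kinase inhibitor p21 (0.167), Sgms1 (0.189) and Itpkc (0.214), and for Grhl1 Vsig10l (0.143) and Rhov (0.196) came first. Tfap2c and Klf5 shared Nbeal2, at 0.246 and 0.217. Slc25a48 (0.240) and Mreg (0.250) were also near Tfap2c, and Vegfd (0.219) and Tnfaip3 (0.228) near Klf5.

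Zfp750 was nearest to Gltp, a glycolipid transfer protein (0.263), Sult2b1, a cholesterol sulfotransferase (0.282), and Fgfbp1 (0.285). Klf4 was nearest to Jund (0.123), Erf (0.128) and Atf3 (0.134), and Jund and Atf3 are stress-responsive genes of the AP-1 and ATF families, with Atf3 on the dissociation response list. Trp63 was nearest to Prkci (0.0719), Zfp35 (0.0879) and Rabgap1 (0.0933), and Tfap2a to Tet3 (0.128), Purb (0.131) and Fam160a1 (0.135). Gata3 was nearest to Chl1 (0.128), Ptger4 (0.159) and Rasgrp1 (0.182), of which Rasgrp1 is a signalling gene of T cells. Among the factors themselves the closest pair was Ovol1 and Grhl1 (0.231), then Trp63 and Klf4 (0.255). The 11 points of each pattern share 4 sorted groups, and the values are a description with no test.

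On GRCm38 (Ensembl 96), Trp63 lies at chr16:25683763-25892102, Tfap2a at chr13:40715302-40738376, Tfap2c at chr2:172549593-172558622, Klf4 at chr4:55527143-55532466 and Klf5 at chr14:99298691-99315036. Ovol1 lies at chr19:5549136-5560646, Grhl1 at chr12:24572283-24617391, Grhl3 at chr4:135541888-135573630, Zfp750 at chr11:121510978-121519333 and Gata3 at chr2:9857078-9890034. Counts were taken over exons. Tfap2a, Ovol1 and Gata3 share exonic bases with annotated antisense or neighbouring genes, the most being 690 between Ovol1 and Gm31166, which had 0 to 38 counts where Ovol1 had 480 to 2065. As the strand setting of the counting is not given in the sources used here, reads of these genes and their antisense partners cannot be told apart.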

How the data were processed

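RNA of 11 sorted libraries, each of cells of 2 mice, was sequenced from TruSeq RNA v2 libraries. As deposited, the files hold whole-number counts per gene, which the authors made with STAR and featureCounts (mm10, Ensembl 96) without normalization, and the strand setting is not given in the sources used here. The submitters' processing notes also name bcl2fastq 2.20.0.422 and DESeq2 1.18.1. The 1 row outside the Ensembl genes, at most 0.0307% of a library's counts, stayed out of totals and tests.

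Groups and replicate numbers came from the labels. In R 4.3.3, edgeR 4.0.16 (TMM, filterByExpr, glmQLFit and glmQLFTest) was fitted on all 11 libraries with 1 mean per group, and 20307 genes were tested. P-values were adjusted over all of them by the Benjamini-Hochberg method, and a gene was called where its log2 fold change exceeded 1 in size with an adjusted p under 0.05. CPM are on TMM-scaled library sizes, and lengths are merged exons of Ensembl 96. Totals of 17409131 to 46542177 counts left a common biological coefficient of variation of 0.608. P-values measure the spread between libraries of 2 mice each. The main fit takes all 11 libraries as independent, although those of one replicate number may share mice. The scripts were tested on simulated data. Further tools were limma 3.58.1, DESeq2 1.42.0, Python 3.11.15, pandas 2.3.3, numpy 2.4.6 and matplotlib 3.10.9.

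The members and lists were chosen with earlier results of these data known. Named genes were all members, up to 4 called genes per list and comparison with the largest change (otherwise up to 2 as values), the sort genes and the 3 nearest profiles per member, of which 1 is not reported here. Further genes of the lists (Foxn1, Pou2f3, Pou3f1, Krt5, Krt10, Itgb4, Grhl2, Ovol2, Trp73, Flg, Lor, Snai2, Zeb1, Tcf7l1 and markers) were named after their values were seen.

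The study counts 3 biological replicates of 2 mice each over the 4 sorts together and ages match by number, so libraries of the same number were read as sharing mice, although no source states this outright. Their deviations from group means correlated with a median r of 0.08 (-0.42 to 0.59 over 15 pairs, 7 above 0.1), against -0.02 between other numbers, and 7 of 11 libraries correlated best with one of their own number. Alternatives were DESeq2, RLE size factors, looser and stricter count filters, calls by p-value alone, a replicate block, fits on the compared groups alone or with population alone, and omission of each library. Log2 differences by age were added after seeing the data.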

Additional observations from a re-analysis of the deposited data

Results flagged for a closer look

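One row of the files lies outside the Ensembl genes and enters no comparison of the report. Its level was above that of every tdTneg library (2.54 to 4.89 CPM) in 5 libraries, at 133 and 252 CPM in tdT+CD49f+CD34+ replicates 1 and 3 and at 254, 224 and 307 CPM in tdT+CD49f+CD34+SCA-1+ replicates 1, 2 and 3. In the library labelled tdT+CD49f+CD34+ replicate 2 it was at 2.05 CPM, from 37 counts, below the tdTneg libraries. What the row counts is not given in the sources used here.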

How the results depend on the processing

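The 7 factors called higher in the SCA-1+ population were 7 under RLE size factors, DESeq2, both other filters, the replicate block and population as the only factor, 8 with no fold threshold, and 5 to 7 when 1 library was left out. The share of all genes called higher was 4.91% under RLE size factors, 6.11% in DESeq2, 2.51% and 6.18% with the looser and stricter filter, 4.62% with the block, 4.28% with population alone, 8.88% with no fold threshold and 2.44 to 5.69% with 1 library left out. With 1 library left out, the count of called factors ran from 3 to 5 within tdT+, from 0 to 6 within tdTneg, from 0 to 1 for tdT in CD49f+CD34+ and for the difference in tdT effect, and was 0 for tdT in CD49f+CD34+SCA-1+ cells. In these fits 1.79 to 3.37% of genes were called higher within tdT+ and 0.222 to 4.57% within tdTneg, and 0 to 0.0349%, 0.00409 to 1.85% and 0.397 to 3.44% were called in either direction in the other comparisons, in that order. Between tdT+ and tdTneg CD49f+CD34+ cells, DESeq2 called 2 factors (1.63% of genes) and the looser filter (1 count or more in any library) called 2 (0.402% of genes), Grhl3 and Zfp750 in each case. With the replicate block 1 factor, Tfap2c, was called between tdT+ and tdTneg CD49f+CD34+SCA-1+ cells, at 1.02 (adjusted p = 0.0492, edgeR), and the block changed no other call of a factor. Within tdTneg cells Gata3 was called as well under DESeq2 and the looser and stricter filter, where 6.2%, 2.45% and 6.3% of genes were called higher.

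Of the log2 fold changes of single factors, some near 0 turned sign, and the cause was not tested. With 1 library left out, Trp63 between populations ran from -0.011 to 0.12, Klf4 within tdT+ from -0.22 to 0.35, Tfap2a for tdT in CD49f+CD34+ cells from -0.17 to 0.14, and for tdT in CD49f+CD34+SCA-1+ cells Ovol1 from -0.065 to 0.41 and Grhl1 from -0.010 to 0.50. Klf4 within tdT+ was 0.012 with the replicate block, against -0.04. Depth did not limit detection of the factors, whose lowest count was 130. With 2 or 3 libraries per group, the 95% intervals between tdT+ and tdTneg cells spanned up to 1.66 (Grhl3 in CD49f+CD34+) and 1.81 (Grhl3 in SCA-1+) on the log2 scale.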
